A study of Drosophila melanogaster with 4 samples.

Results

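The NK homeobox cluster is a group of neighbouring homeobox genes on chromosome arm 3R of Drosophila melanogaster that includes tin, bap, lbl, lbe, C15 and slou. Its Polycomb regions were taken as all enriched regions that overlapped 3R 17190000 to 17425000 on FlyBase r5, a window of 235.0 kb. This gave 9 of the 1189 regions of Pc ChIP replicate 1 and 6 of the 1405 regions of Pc ChIP replicate 2. Regions were selected on position alone, but the window itself was chosen by its Polycomb coverage in earlier results of these libraries, so its covered share, region widths and scores are descriptions and carry no test.

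The series profiled chromatin bound by Polycomb (Pc) by ChIP-seq in wild-type embryos of the Oregon-R strain, 14 to 16 h into development. Antibody against Pc was used for 2 libraries (replicates 1 and 2), and 2 libraries were of input DNA. How the inputs entered the calling of regions was not stated. The ChIP came from whole embryos, so strong binding in few cells and weak binding in many cannot be told apart. Separate collections of embryos were not stated for the replicates, and the number of reads behind each region was not known.

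Pc carries the chromodomain of Polycomb repressive complex 1, through which the complex binds histone H3 trimethylated at lysine 27. The complex keeps developmental regulators silent in cells that do not use them. Homeobox genes are classic targets, and in the fly embryo they often lie in Polycomb domains many times wider than a gene. The NK genes encode homeodomain transcription factors. tin (tinman) specifies the heart and dorsal mesoderm, and bap (bagpipe), which acts downstream of tin, specifies the visceral mesoderm around the gut. lbl and lbe (ladybird late and early) are a neighbouring pair that set the identity of subsets of heart cells and body wall muscles, and slou (slouch, also known as S59 or NK1) sets the identity of muscle founder cells. C15 (clawless) is known mainly from the amnioserosa and the tip of the leg, so it is not chiefly a mesodermal gene.

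In the RefSeq gene table of assembly Release 6, all 6 genes were found on 3R in the order tin, bap, lbl, lbe, C15 and slou. The stretch from tin to slou listed 18 genes, 12 of them protein coding. The 6 other protein-coding genes were Ugt49B2, CG7907, CheB93a and CheB93b between bap and lbl, Fancm between lbe and C15, and sp3 between C15 and slou. The next protein-coding genes outside were mod(mdg4) beyond tin and CG15498 beyond slou. The regions are on FlyBase r5 and carry no gene names, and positions were not converted between the releases. Regions are therefore given by position and no single region is assigned to a gene.

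Polycomb covered most of the NK cluster in both libraries. Regions held 194.2 kb of the window in replicate 1, a covered share of 82.7%, and 183.7 kb in replicate 2, a covered share of 78.2%. The rest of 3R was covered to 8.57% in replicate 1 and 8.56% in replicate 2. The covered share was thus 9.65-fold higher in the cluster than in the rest of the arm in replicate 1, and 9.14-fold higher in replicate 2. The window is 0.842% of the length of 3R and held 7.57% of its covered bases in replicate 1 and 7.20% in replicate 2. Both libraries placed the uncovered sequence at the window's edges and in a few short breaks. From the first region to the last, 91.8% of 211.5 kb was covered in replicate 1, and 90.0% of 204.2 kb in replicate 2.

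**Figure D1:**
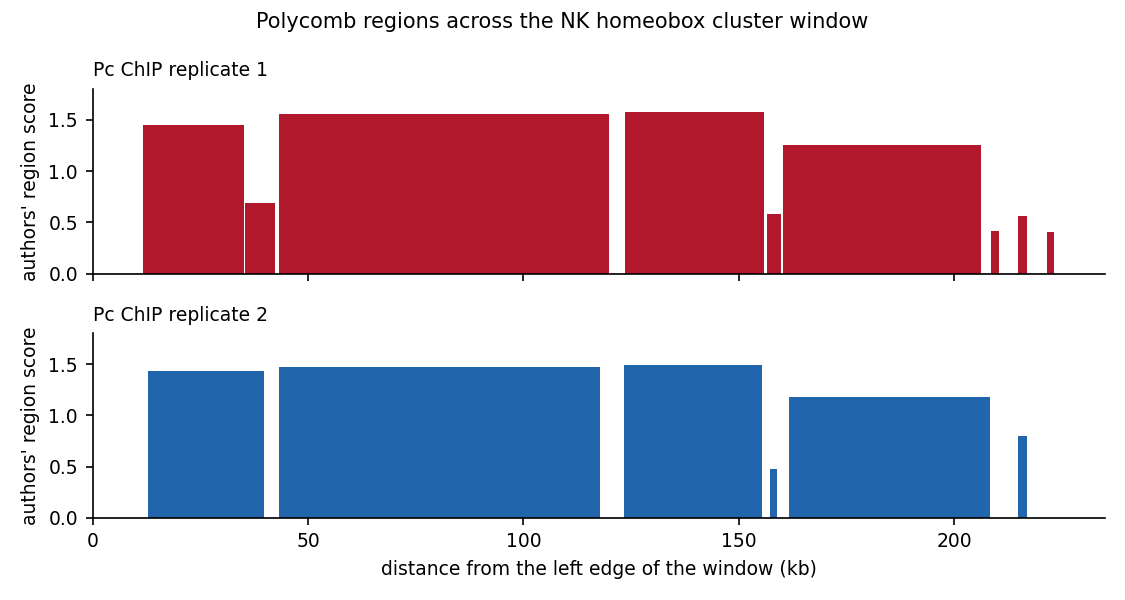
Polycomb regions across the NK homeobox cluster window in Pc ChIP replicates 1 (above) and 2 (below). Each bar is a deposited region, drawn from its start to its end in kb from the left edge of the window, and its height is the authors' score, which has no stated scale. Both libraries show 4 wide regions, with scores of at least 1.25 in replicate 1 and 1.18 in replicate 2, and low narrow regions between or beyond them.

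The domain was built from 4 wide regions that recurred in both libraries. In replicate 1 the 4 regions of 10 kb or more held 91.9% of the covered bases of the cluster, and in replicate 2 their 4 counterparts held 98.0%. By number, regions of 10 kb or more were 4 of the 9 cluster regions in replicate 1 and 4 of the 6 in replicate 2. They made up 17.4% of the regions of the whole replicate 1 list and 14.9% of the replicate 2 list. The share of covered bases in such regions over the whole lists is not given, so 91.9% and 98.0% have no background here.

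The leftmost wide region, at the end of the window where the gene order puts tin and bap, ran from 17201708 to 17225190 in replicate 1 (23.5 kb, score 1.45). Its counterpart in replicate 2 spanned 17202858 to 17229767 (26.9 kb, score 1.43). Replicate 1 broke off after 117 uncovered bases and resumed with a region of 7.05 kb, from 17225308 to 17232353, that scored only 0.692. Replicate 2 ran across that break without a gap and ended 2586 bases before the smaller replicate 1 region did.

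The widest region of the cluster came next. It ran from 17233269 to 17309787 in replicate 1 (76.5 kb, score 1.55) and from 17233198 to 17307914 in replicate 2 (74.7 kb, score 1.48). It ranked 13 of 1189 regions by width in replicate 1 and 7 of 1405 in replicate 2. Both libraries covered 74.6 kb of it without a break, the longest such stretch in the window.

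The highest score of the cluster belonged to the wide region that followed. It spanned 17313490 to 17345934 in replicate 1 (32.4 kb, score 1.58) and 17313472 to 17345391 in replicate 2 (31.9 kb, score 1.49). It ranked 22 by score in replicate 1 and 40 in replicate 2. Beside the 76.5 kb region, it was thus less than 50% as wide but scored slightly higher in both libraries.

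The last wide region, towards the end of the window where the gene order puts slou, had the lowest score of the 4. It ran from 17350188 to 17396166 in replicate 1 (46.0 kb, score 1.25) and from 17351744 to 17398304 in replicate 2 (46.6 kb, score 1.18). From highest to lowest score, the wide regions came in the same order in both libraries, and so they did from widest to narrowest, but the orders by score and by width differed. With 4 regions, that agreement is given as a description.

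All 4 wide regions were among the upper 10% of scores in their own list in both libraries. By construction 10.0% of all replicate 1 regions and 9.96% of all replicate 2 regions are. Wide regions score high throughout these lists, so the scores were also set beside those of other wide regions. The median score of the 4 wide cluster regions was 1.50 in replicate 1 and 1.45 in replicate 2. The other 203 regions of 10 kb or more in replicate 1 had a median of 1.20, and the other 206 in replicate 2 had a median of 1.18. Ranked among all regions of 10 kb or more, the 32.4 kb region stood 17 of 207 in replicate 1 and its counterpart 27 of 210 in replicate 2. The 46.0 kb region stood 92 of 207 and its counterpart 105 of 210, close to the middle of their class.

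**Figure D2:**
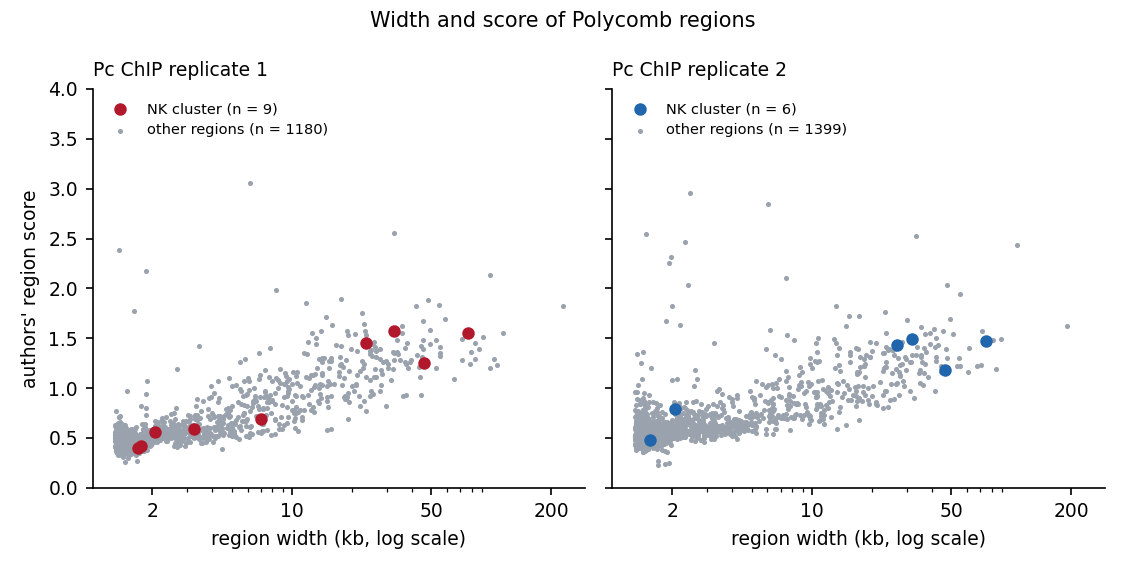
Width (kb, log scale) against the authors' score for every region of Pc ChIP replicates 1 (left) and 2 (right). Large coloured points are regions of the NK cluster (9 and 6) and small grey points are all other regions (1180 and 1399); the 4 wide cluster regions lie within the spread of other wide regions and the narrow ones within the spread of other narrow regions.

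The narrow regions of the cluster scored lower than the wide ones, and their number differed between the libraries. In replicate 1 the 5 regions under 10 kb scored between 0.403 and 0.692, and in replicate 2 the 2 such regions scored 0.481 and 0.795. Their scores did not overlap with those of the wide regions in either library. Wide regions score high throughout these lists, with medians of 1.20 and 1.18 for the others of 10 kb or more. The separation is therefore not read as a trait of the cluster. Within their whole lists the narrow cluster regions were not uniformly low. In replicate 1, 3 of the 5 stood above the median score of the list, at percentiles 71.5, 59.97 and 54.4. In replicate 2, 1 of the 2 did, at percentile 76.5. The other replicate 2 region stood at percentile 10.7. Between the third and the fourth wide region, replicate 1 had a region from 17346615 to 17349867 (3.25 kb, score 0.586). Replicate 2 had one of 1.56 kb inside it, from 17347315 to 17348871 (score 0.481).

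At the right end of the cluster, replicate 1 listed 3 narrow regions beyond the last wide one, and replicate 2 listed 1. The region in both lists ran from 17404941 to 17406994 in replicate 1 (2.05 kb, score 0.559) and from 17404942 to 17407019 in replicate 2 (2.08 kb, score 0.795). It stood at percentile 54.4 of the scores in replicate 1 and 76.5 in replicate 2. Its left edges lay 1 base apart and its right edges 25 bases apart, and its Jaccard index of 98.7% was the highest of any overlapping pair in the cluster. The regions listed in replicate 1 only ran from 17398569 to 17400330 (1.76 kb, score 0.416) and from 17411515 to 17413210 (1.70 kb, score 0.403). The first of them began 264 uncovered bases after the end of the last wide region of replicate 2. They were the lowest-scoring members, at percentiles 9.08 and 6.56 of their list.

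Overlap by at least 1 base found 7 of the 9 replicate 1 cluster regions in replicate 2 (77.8%). It found 6 of the 6 replicate 2 cluster regions in replicate 1 (100%). Over the whole lists the shares were 64.7% for replicate 1 and 60.7% for replicate 2. With most of the window covered in each list, an overlap of 1 base is nearly given by the choice of the window, so nothing is read from these shares. When 50% of both regions had to overlap, 5 of 9 and 5 of 6 were found, against 43.5% and 36.8% over the whole lists. These shares too were taken in a window chosen by its coverage, and nothing is read from them.

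By bases the libraries were closer to each other. They shared 181.4 kb of the window, which was 93.4% of the covered bases of replicate 1 and 98.7% of those of replicate 2. The Jaccard index, the share of bases covered in both among those covered in either, was 92.3% in the cluster. It was 76.2% in the rest of 3R, where far less of the sequence is covered and more of the regions are narrow. High coverage in both lists raises this index by itself, and the window was chosen by its coverage. Nothing is therefore read from the difference. In 69 pairs of wide regions elsewhere, each 10 kb or more in replicate 1 and overlapping one another alone, the median Jaccard index of the pair was 95.2%. The 3 such wide pairs of the cluster had 97.5%, 98.3% and 92.3%. The leftmost wide regions are not among them, since the replicate 2 region also overlapped a further replicate 1 region, and their index was 79.6%. Sequence covered in replicate 1 alone came to 12.9 kb, and in replicate 2 alone to 2.37 kb. Of 47 consecutive bins of 5 kb, 36 were covered to at least 50% in both libraries, 3 in replicate 1 alone, 0 in replicate 2 alone and 8 in neither. Both libraries covered 32 bins completely.

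In the 5 pairs of regions that overlapped one another and no further region, edges lay between 1 base and 2138 bases apart. Their left edges lay 71, 18, 700, 1556 and 1 bases apart, in order along the arm. Their right edges lay 1873, 543, 996, 2138 and 25 bases apart. The left edge was the closer one in each of these 5 pairs. The leftmost wide regions are not among them. Taken as replicate 1 minus replicate 2, the left edges of those leftmost regions differed by -1150 bases and their right edges by -4577. In the 5 pairs, the median difference was 71 bases for left edges and 996 bases for right edges. In the 380 such pairs elsewhere in the lists, the medians were 412.5 bases for left edges and 509 bases for right edges. Left edges within 100 bases of each other occurred in 3 of the 5 cluster pairs and in 56 of the 380 others (14.7%), or 16 of the 69 others of 10 kb or more (23.2%). The limit of 100 bases was set after the values were seen, and with 5 pairs no more than a description is given.

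Both libraries had a gap before and after the second and the third wide region, though the gaps differed in width. Before the widest region the gap was 915 bases in replicate 1 and 3430 bases in replicate 2, and 844 bases, from 17232354 to 17233197, were uncovered in both. The stretch from 17309788 to 17313471, 3.68 kb between the second and the third wide region, was uncovered in both. On either side of the narrow region between the third and the fourth wide region, the gaps were 680 and 320 bases in replicate 1, and 1923 and 2872 bases in replicate 2. The gap of 117 bases described above was in replicate 1 alone. At the right end, the stretches from 17400331 to 17404940 (4.61 kb) and from 17407020 to 17411514 (4.50 kb) were uncovered in both. In its own list, replicate 1 had gaps of 117 to 4610 bases (8 gaps) and replicate 2 gaps of 1923 to 6637 bases (5 gaps).

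These gaps decided how the domain was counted. With regions under 5 kb apart joined, replicate 1 made the cluster a single block of 211.5 kb from all 9 regions, the third widest of its 599 blocks. Replicate 2 gave 3 blocks at that distance, the widest of 105.1 kb, because 2 of its gaps were wider than 5 kb. One, of 5557 bases, lay between the second and the third wide region, where replicate 1 had 3702 bases. The other, of 6637 bases, followed the fourth wide region, where replicate 1 listed an extra narrow region with gaps of 2402 and 4610 bases beside it. With regions under 10 kb apart joined, both libraries gave 1 block, of 211.5 kb in replicate 1 and 204.2 kb in replicate 2. With only those under 1 kb apart joined, replicate 1 gave a widest block of 108.1 kb and replicate 2 one of 74.7 kb.

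**Figure D3:**
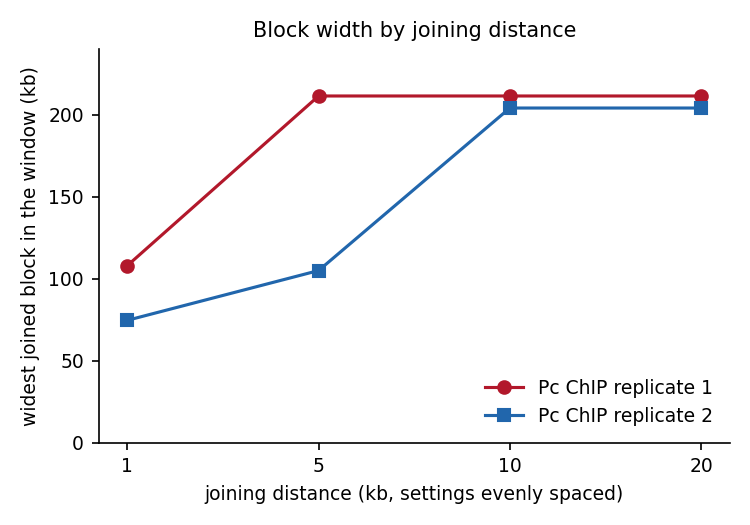
Width of the widest joined block in the NK cluster window (kb) at joining distances of 1, 5, 10 and 20 kb, for Pc ChIP replicates 1 (circles) and 2 (squares). At 5 kb the libraries stand at 211.5 and 105.1 kb, and at 10 and 20 kb at 211.5 and 204.2 kb.

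Long uncovered stretches lay on both sides of the domain, broken by regions of a single list. Left of it, the nearest region was 294.0 kb away in replicate 1 (16905709 to 16907741, score 0.560) and 127.7 kb away in replicate 2 (17073659 to 17075131, score 0.557). Right of it, the nearest region was 37.8 kb away in replicate 1 (17451006 to 17452387, score 0.456) and 188.8 kb away in replicate 2 (17595844 to 17597190, score 0.564). These 4 regions just outside the window were 1.35 to 2.03 kb wide, and none was found in the other list. Just inside the window, the outermost regions were the 23.5 kb and 26.9 kb regions on the left and the narrow regions of 1.70 kb and 2.08 kb on the right.

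Counting only regions found in both lists, the next one to the left lay 297.7 kb away in replicate 1 and 298.9 kb away in replicate 2. The next one to the right of the last cluster region found in both lists lay 470.3 kb away in replicate 1 and 471.4 kb away in replicate 2. The median gap between neighbouring regions of that kind on 3R was 4.67 kb in replicate 1 (195 gaps) and 4.55 kb in replicate 2 (209 gaps). The gaps on the left and right of the cluster ranked 29 and 20 by width in each library, so gaps of this width were found elsewhere on the arm, and the widest was 1904 kb in both.

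Few stretches of the genome were covered as fully as the NK cluster. The large arms X, 2L, 2R, 3L and 3R were divided into consecutive windows of the same 235.0 kb, of which 501 did not touch the cluster. In replicate 1 the cluster's share of 82.7% was exceeded by 2 of them, with 94.96% and 88.6%, and the next had 72.2%. In replicate 2 its share of 78.2% was also exceeded by 2, with 92.4% and 88.8%, and the next had 67.9%. The median of the 501 windows was 0.691% in replicate 1 and 1.24% in replicate 2. The cluster's window was placed around the domain while the others fell on a fixed grid, and the grid window with most of the cluster was covered to 77.7% in replicate 1 and 73.8% in replicate 2.

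**Figure D4:**
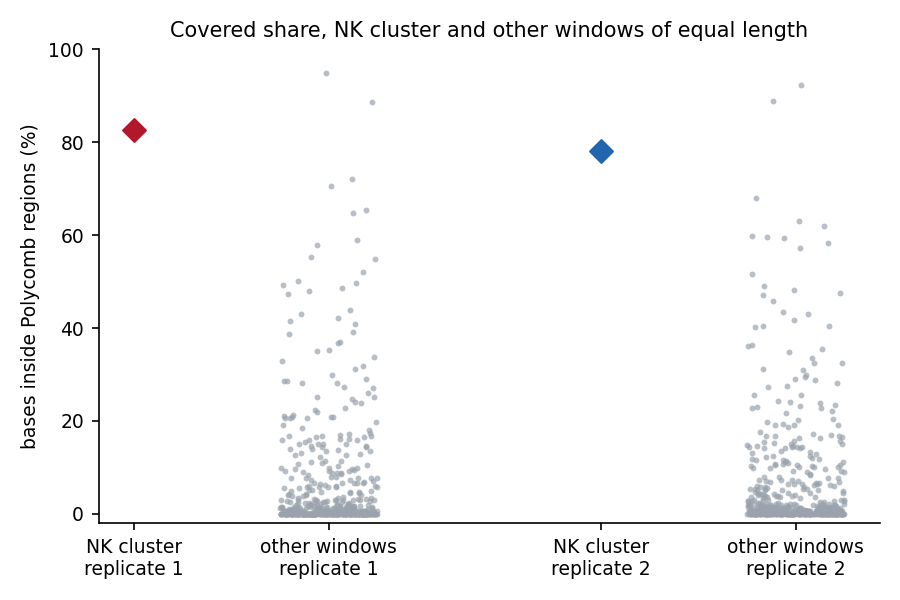
Share of bases inside Polycomb regions (%) for the NK cluster window (diamond) and for the 501 other windows of equal length on the 5 large arms (grey points, spread sideways at random), in Pc ChIP replicates 1 and 2. The cluster stands at 82.7% and 78.2%, below 2 windows in each library.

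Both windows that were covered more fully lay on 3R, in blocks that map, from general knowledge of the arm and not from an annotation used here, to the Hox gene complexes. The NK domain, from its first to its last region, was set beside these and the next widest block of the arm, which were joined under 5 kb. In replicate 2 the NK domain itself is 3 blocks at that distance, so its values there are on a different basis. Its score averaged over covered bases was 1.40 in replicate 1 and 1.38 in replicate 2. The block starting at 12482202 in replicate 1, where the bithorax complex lies, averaged 1.62 in replicate 1 and 1.44 in replicate 2. The block starting at 2532987, where the Antennapedia complex lies, averaged 1.22 and 1.12. The third, starting at 6338688, averaged 0.839 and 0.957. By this measure the NK domain stood between the blocks at the Hox complexes in both libraries.

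The number of regions per length also varied among the blocks. The NK domain had 4.26 regions per 100 kb in replicate 1 and 2.94 in replicate 2. The block at the bithorax complex had 0.903 and 1.20, the block at the Antennapedia complex 4.67 and 6.54, and the third block 13.0 and 11.5. These blocks were picked for their width in the same lists, so the comparison has no test. Over the rest of 3R, the score averaged over covered bases was 1.16 in replicate 1 and 1.10 in replicate 2.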

How the data were processed

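Polycomb ChIP-seq regions were analysed in 2 libraries, 1 list per library. The submitters' processing notes name Bowtie 0.12.7. Embryos were fixed in 1.8% formaldehyde, per the labels' protocols. Coordinates are those of FlyBase r5, per the file headers. The authors' deposited lists give each region a score whose scale is not stated. The caller, its threshold and its window are likewise not given in the sources used here. Scores were therefore used to rank and describe regions within a list. Depth was unknown and the inputs had no values here. The experiment number in each ChIP source name is the one in the other ChIP file's name. The recorded link was used, and an exchange would only swap the replicate names.

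Members and lists were chosen with earlier results of these data known. All 6 genes of the rule and every region in the window are named. A region was found in the other list at 1 base of overlap. Python 3.11.15, scipy 1.17.1, numpy 2.4.6 and matplotlib 3.10.9 were used. Covered shares and overlaps were tested on simulated data and were exact in 20 of 20 lists. For joining, the check was only that no gap under the joining distance was left. The files on hand paired no protein or promoter sequences with the genes, so sequence comparisons planned for them were not made.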

Additional observations from a re-analysis of the deposited data

How the results depend on the processing

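Of the alternatives, 23 values stayed within the limit set for their kind of value, and 11 moved. The limits included the spread between the libraries and, for counts, 1.5 times the count. Block widths were not held to that spread: 108.1 kb and 204.2 kb lay between the main widths of 211.5 kb and 105.1 kb but counted as moved. Window edges moved the covered share. Widened by 25 kb on each side, it was 68.2% in replicate 1 and 64.5% in replicate 2, and narrowed by 25 kb it was 95.6% and 91.6%, since the outermost regions ended 11.7 to 18.0 kb inside the edges. The mean covered share of both libraries was 80.4%, and 78.2 to 82.7% with either left out. Merging regions under 1 kb apart left 5 regions in replicate 1. Requiring 50% overlap of both regions found 55.6% of replicate 1 regions and, in the reverse direction, 83.3% of replicate 2 regions. At 1 base of overlap, the reverse direction found 100%. The widest block was 108.1 kb in replicate 1 when joined under 1 kb, and 204.2 kb in replicate 2 when joined under 10 or 20 kb. In 10 kb bins, 87.0% were covered in both libraries, against 76.6% in 5 kb bins. For the Jaccard index, with no replicate spread, a shift of 1 percentage point was allowed. No paired analysis was possible because no values of the inputs were at hand. Planned protein and promoter comparisons were not run. Depth was unknown, so an uncovered stretch may be unenriched or under the authors' threshold.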
